A study of Solanum tuberosum with 72 samples.

Results

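Roots of potato seedlings (Solanum tuberosum, variety Gilroy) that had stood in medium at 4 °C for 27 h were compared with roots of unstressed seedlings taken at the same time. The comparison rests on 6 arrays, 3 of cold and 3 of control, out of 72 in the series, which also holds leaf, heat, salt and earlier times. Per the labels, plants were raised from true seed in hydroponic boxes for 5 weeks at 25 °C with 16 h of light and 8 h of dark. For cold, the medium was replaced with pre-chilled medium and the boxes stood on ice, and the controls had their medium changed as well. The same treatment of the medium was sampled at 3 and 9 h, and in leaf (so named in the titles), and those samples serve for comparison. The heat samples, also shown beside cold, stood in medium warmer than 25 °C. The salt samples stood in medium at 25 °C, as did the controls. Each sample pooled the roots of 6 plants, and the whole experiment was done 3 times independently, which gives the experiment numbers 1 to 3 and pairs a cold array with the control array of the same number. An array compared the sample, labelled with Cy3, with a Cy5-labelled pool of unstressed plants, and the cold and control arrays of an experiment shared that pool. Of the 32448 spots on the array, 16673 had at least 2 values in each group and were tested.

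The numerator of the deposited ratio is not stated in the sources used here, and dyes were not swapped. A positive change therefore means only a higher log2 ratio on the cold arrays than on the control arrays, and may be more or less RNA in the cold. All arrays were labelled the same way round, so genes with the same sign moved in the same direction. The samples are whole roots, in which fewer cells of a type and less RNA per cell cannot be told apart. A change of 1 on the log2 scale is a 2-fold difference between the ratios.

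Plants that tolerate cold respond to it over hours to days. Chilling slows enzymes and electron transport, and in many plants it is followed by calcium and protein kinase signalling, by transcription factors of families such as WRKY and NAC, and by changes in sugars, polyamines and cell walls. In Arabidopsis, a set of transcription factors called CBF switches on dehydrin and other dehydration genes in the cold, and potato has members of the same families. Starch and sugar metabolism is of particular interest in potato, whose tubers turn starch into sugars when stored cold.

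A table of GEO's platform annotation gave 1 gene for 1630 of the 32448 spots, several genes for 180, which stay unnamed here, and none for the other 30638. The 1630 spots belonged to 815 printed sequences, called clones here, each on a pair of spots, and to 430 genes, all found by ID in a RefSeq gene table. Where the symbol is only an ID, the name used is the gene's synonym in that table, and ChtA stands for a gene listed there as ChtA1 to ChtA4. Most changed spots can therefore be given only by their number. Clones that share a gene name need not hold the same part of the gene or the same family member. The annotation can be old, and no root marker was among the genes used, so the tissue is that of the labels.

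The cold arrays lay much farther from their reference than the control arrays. The reference pool and the control samples both came from unstressed plants, so the design itself places control arrays near the reference. The size of the gap is therefore the result, and its direction is not. The share of tested spots 2-fold or more from the reference pool was 14.4%, 14.9% and 11.3% on the cold arrays of experiments 1, 2 and 3, and 0.864%, 1.32% and 1.58% on the control arrays. The means were 13.5% ± 1.95 and 1.26% ± 0.362 (SD, n = 3 each), a difference of 12.3 percentage points (two-sided exact permutation test, p = 0.1, the smallest value that 3 arrays against 3 allow). Experiment 3 had the narrowest cold array, with an SD over spots of 0.674 against 0.789 and 0.785. The arrays had 16703 to 17944 measured spots, and their medians over tested spots lay between -0.013 and 0.

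**Figure D1:**
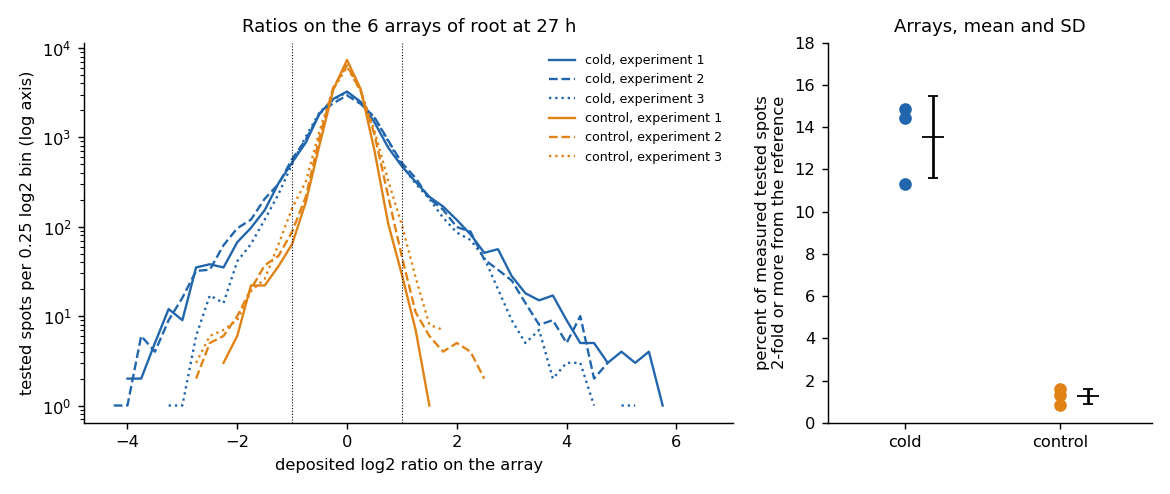
Left, the number of tested spots (log axis) in each 0.25-wide bin of the deposited log2 ratio, 1 line for each of the 6 arrays, with dotted lines at 2-fold. Right, the percent of spots 2-fold or more from the reference on each array, with the group mean and SD (n = 3): cold arrays lie at 11.3% to 14.9% and control arrays below 1.6%.

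At an adjusted p under 0.05, 6794 of the 16673 tested spots differed between cold and control, which is 40.7% of them. The call was positive for 3469 spots (20.8%) and negative for 3325 (19.9%). Without experiment 2, which removes a cold and a control array, 4057 of 15160 spots passed, and quantile scaling of the arrays left 4012 of 16673. Most changes were moderate: the median size among called spots was 0.74 with a median SE of 0.17. Large changes were more often positive, with 1241 positive and 806 negative called spots at 2-fold or more, 271 and 109 at 4-fold or more, and 60 and 8 at 8-fold or more. The median change over all tested spots was -0.01.

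The experiments were also compared spot by spot, without regard to the calls. Of the 14415 spots measured on all 6 arrays, 9235 (64.1%) had a change of the same sign in all 3 experiments. Across the 14415 spots with all 6 values, which share arrays and reference pools, the changes of experiments 1 and 2 correlated with r = 0.85, those of 1 and 3 with 0.77 and those of 2 and 3 with 0.81. Cold arrays correlated with each other at 0.80 to 0.90 and control arrays at 0.39 to 0.52. Of 7845 pairs of duplicate spots in which both were tested, 2764 had both called with the same sign and 0 with opposite signs. In 977 pairs 1 spot was called, and in 4104 neither was. The changes of duplicate spots differed by 0.09 at the median. Duplicate spots share arrays and samples, and their pairing was inferred from these values. Their likeness was therefore largely given in advance and is no repeat of the experiment.

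The named genes were grouped by function, and 188 clones of 109 genes in these lists were tested. Of these clones 92 were called (48.9%, against 40.7% of all tested spots), 50 positive and 42 negative. The lists were chosen with earlier results of these data known, and clones of the same gene are not independent. Shares of a list set beside those of all spots, here and below, are therefore descriptive and test nothing. Where the other spot of a called clone, on the same arrays, was tested it had the same sign for 79 of 79. Leaving out 1 array or 1 experiment ended 36 of the 92 calls, whose changes were at most 1.4 in size, and the other 56 held wherever they could be tested. The value and the call quoted for a clone are those of its spot with more values. In 13 clones the quoted spot did not pass and its duplicate did, and in 3 clones it was the reverse.

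**Figure D2:**
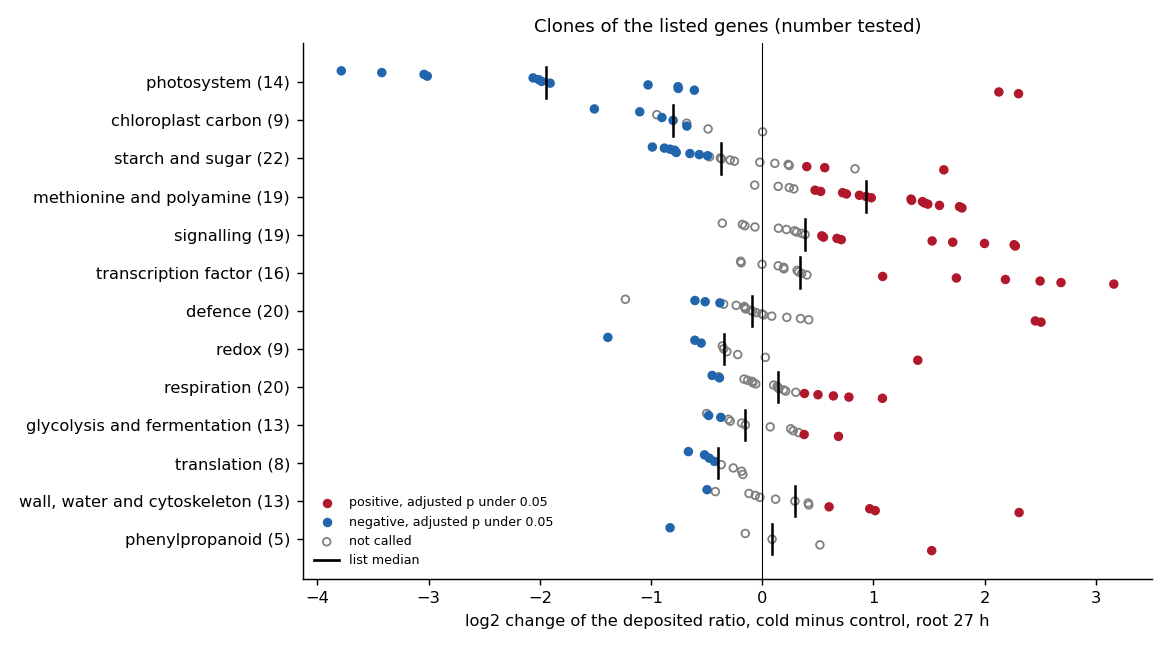
Each point is 1 clone of a listed gene, placed by its log2 change (cold minus control, root, 27 h). Filled points passed the test, open points did not, and the bars are list medians: photosystem clones lie lowest at a median of -1.95 and methionine and polyamine clones highest at 0.93.

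Photosystem genes were mostly negative, strongly so in cab1, PSBO and psbP. The negative clones of PSBR changed by less, and 2 other PSBR clones were positive. These genes encode the light-harvesting antenna and the oxygen-evolving complex, which splits water in photosystem II of the chloroplast. Of 14 tested clones of 4 genes, 12 were negative (85.7%, against 19.9% of all tested spots) and 2 positive, with a median of -1.95. Without experiment 3, 7 of the 11 clones still testable were negative. The lists' most negative clones were the 4 of cab1, which encodes a chlorophyll a/b-binding protein of the antenna. The cab1 clone at spot 152101 had ratios of -4.06, -4.32 and -2.74 on the cold arrays of experiments 1, 2 and 3, and of -0.25, 0.25 and 0.24 on the control arrays. Its groups were far apart, with a change of -3.78 (SE 0.54, adjusted p = 1.30e-05). Deposited ratios carry 2 decimals on the linear scale, so values this low come in coarse steps. The other cab1 clones changed by -3.42, -3.04 and -3.01. The last pair each lacked 1 cold value, which the fit drops.

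Genes of the oxygen-evolving complex were close behind. A PSBO clone, for its largest subunit, read -2.56, -2.25 and -1.55 in the cold and -0.38, 0.06 and 0.14 in the control, a change of -2.06 (SE 0.36, adjusted p = 0.000137). A psbP clone read -2.64, -2.12 and -1.64 against -0.41, 0.00 and -0.04, a change of -1.98 (SE 0.30, adjusted p = 1.27e-05). The second clones of both genes gave -2.01 and -1.91. All 3 cold values lay below all 3 control values in each of these clones. That is usual for a called clone here: of the 92 called clones of the lists, 83 had groups that did not overlap.

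Clones named PSBR, a small photosystem II protein, disagreed. Of 6 clones, 4 were negative, at -1.03 to -0.61, and 2 were positive, at 2.31 and 2.13. The positive clone at spot 145143 read 2.08, 2.37 and 2.55 in the cold and 0.28, 0.15 and 0.19 in the control, and its duplicate spot gave 2.10. Which of these sequences belong to the gene was not tested. Of the negative clones, the one with the smallest change lost its call without any 1 of the 3 experiments (-0.65 to -0.57), and the one at spot 150316, with a change of -0.75, without experiment 3 (-0.67). Quantile scaling ended the calls of 3 of the 4.

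A mixed list of genes tied to chloroplast carbon metabolism leaned the same way. Beside the carbon enzymes TK and RPE it holds the transporter TPT and the thylakoid formation gene THF1. It also holds GDCST and SHMT, enzymes of glycine and serine metabolism. Of 9 clones of 6 genes, 5 were negative (55.6%, against 19.9% of all tested spots) and 0 positive, with a median of -0.80. Without experiment 1, 8 of 9 were negative. The clones of TK, transketolase of the carbon fixation cycle, changed by -1.10 and -0.90, the first with cold ratios of -1.22, -1.15 and -0.69 against -0.28, 0.10 and 0.43 (SE 0.22, adjusted p = 0.000398). THF1, which is needed for thylakoid formation in Arabidopsis, changed by -0.80 (SE 0.18, adjusted p = 0.000862). GDCST, a subunit of the photorespiratory glycine decarboxylase, changed by -0.68, a call that was lost without experiment 2 (-0.47) or 3 (-0.72). The clones of TPT, the triose phosphate translocator of the chloroplast envelope, differed from each other at -1.51 and 0.00. RPE, ribulose phosphate epimerase, gave -0.68 and -0.49 without passing, but the duplicate spot of its first clone passed (-0.77, adjusted p = 0.0211). SHMT, serine hydroxymethyltransferase, did not pass (-0.95, adjusted p = 0.165).

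Starch and sugar genes split. Of 22 clones of 15 tested genes, 9 were negative (40.9%), 3 positive (13.6%) and 10 not called, with a median of -0.37. Of all tested spots 19.9% were negative and 20.8% positive. Without experiment 2, 3 of 21 were negative, and without experiment 3, 4 of 21. With quantile scaling 3 were negative and 2 positive, and the calls of GBSS (-0.34), SS2 (-0.26) and InvCD141 (0.20) below were among those that ended. On the starch-making side, GBSS, the granule-bound synthase that makes amylose, read -1.69, -1.51 and -1.06 in the cold and -0.30, -0.62 and -0.38 in the control, a change of -0.99 (SE 0.18, adjusted p = 0.000134), while a second clone with 2 cold values gave -0.37 (adjusted p = 0.26). The clones of the starch synthase SS2 gave -0.83 (adjusted p = 0.000375) and -0.38 (adjusted p = 0.052), the latter with a duplicate spot that passed (-0.60), and the ADP-glucose pyrophosphorylase gene agpS3 gave -0.77 (adjusted p = 0.0159). The last call was lost without experiment 2 (values of -0.88 to -0.68 without 1 experiment).

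On the sugar side, a gene for an invertase stood out from the others of its kind. Invertases split sucrose into glucose and fructose. InvCD141 read 2.21, 2.21 and 2.30 in the cold and 0.41, 1.0 and 0.41 in the control, a change of 1.63 (SE 0.24, adjusted p = 1.11e-05), and its duplicate spot gave 1.83. PAIN-1, the vacuolar acid invertase, had the opposite sign, at -0.79 (SE 0.17, adjusted p = 0.000783), and InvCD111 did not pass (-0.25, adjusted p = 0.55). The clones of sus4, a sucrose synthase, were positive at 0.56 and 0.40, and those of FBPase, fructose bisphosphatase, negative at -0.88 and -0.78. The sus4, FBPase, dpeP (disproportionating enzyme, -0.65 and -0.57) and UGPase (UDP-glucose pyrophosphorylase, -0.49) calls each ended when at least 1 of the experiments 2 and 3 was left out.

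Genes for methionine and polyamine synthesis were mostly positive. S-adenosylmethionine, made from methionine, is the methyl donor of the cell and the source of ethylene and of the polyamines spermidine and spermine. Of 19 clones of 6 genes, 15 were positive (78.9%, against 20.8% of all tested spots) and 0 negative, with a median of 0.93, and with quantile scaling 9 were positive and 0 negative. SAMDC, S-adenosylmethionine decarboxylase of the polyamine branch, had 8 clones, of which 7 were positive at 0.98 to 1.59 and 1 did not pass (-0.07, adjusted p = 0.67). Quantile scaling ended 3 of the 7 calls, with values of 0.12 to 0.45. The SAMDC clone at spot 142514 read 1.98, 1.20 and 1.69 in the cold and 0.29, 0.10 and 0.11 in the control, a change of 1.46 (SE 0.16, adjusted p = 1.47e-07). No cold value of that clone reached down to the control values.

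The enzymes that supply SAMDC had the same sign. METK2, an S-adenosylmethionine synthetase, gave 1.80 and 1.77, the first clone with 1.68, 1.49 and 2.18 in the cold against 0.30, -0.04 and -0.30 (SE 0.23, adjusted p = 2.31e-06). All 4 clones of MS, methionine synthase, were positive, at 0.72 to 0.93. Of these 4 calls 3 ended in at least 1 repeat with an array or experiment left out: that at 0.72 without experiment 2 or 3 (0.36 to 1.02 without 1 experiment), that at 0.76 without the cold array of experiment 3 (0.60), and that at 0.88 without the control array of experiment 3 (0.59) or with quantile scaling (0.65). Of 3 clones of METK1, a second synthetase, 2 were positive at 0.53 and 0.48, but under quantile scaling both turned negative (-0.21 and -0.05) without passing the test. SpdSy, spermidine synthase (0.28, adjusted p = 0.24), and ARD, an enzyme of methionine recycling (0.14, adjusted p = 0.51), did not pass.

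Among signalling genes 9 of 19 clones were positive (47.4%) and 0 negative, with a median of 0.39. Of all tested spots 20.8% were positive, and 40.7% were called with either sign, near the list's 47.4%. StWIPK, a mitogen-activated protein kinase (MAPK) first described as wound-induced in tobacco, read 2.66, 1.97 and 1.32 in the cold and -0.32, -0.10 and -0.45 in the control, a change of 2.28 (SE 0.20, adjusted p = 6.76e-09). StMKP1, a phosphatase that acts on such kinases, gave 2.0 and 1.71. StP2C, a protein phosphatase of type 2C, read 2.94, 2.37 and 0.39 in the cold against -0.12 and 0.01 in the 2 control values it had, a change of 2.27 (SE 0.42, adjusted p = 0.000225). StrbohC, an NADPH oxidase that makes superoxide at the plasma membrane, changed by 1.53 (SE 0.17, adjusted p = 1.76e-07).

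The calcium-dependent protein kinases were positive by less. CDPK2 changed by 0.71, CDPK4 by 0.67 and the 2 clones of CDPK5 by 0.55 and 0.54, both CDPK5 calls being lost without experiment 3 and the first also without experiment 2. CDPK1 did not pass (0.29, adjusted p = 0.14). The clones of the mitogen-activated kinases StMPK1, StMPK3 and StMPK4 lay between -0.16 and 0.31 and did not pass. The spots of the StMPK2 clone disagreed, at 0.39 (adjusted p = 0.0846) and 0.93 (adjusted p = 0.00017).

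Of 16 transcription factor clones 6 were positive and 0 negative, with a median of 0.34. The share called, 37.5%, was near the 40.7% of all tested spots. The clones of STWRKY8, a WRKY factor, changed by 3.16 and 2.69. The first read 3.33, 2.36 and 1.59 in the cold and -0.43, -0.60 and -1.18 in the control (SE 0.23, adjusted p = 7.16e-10). StWRKY16 changed by 1.75 (SE 0.17, adjusted p = 5.71e-08), whereas WRKY1 did not pass (0.33, adjusted p = 0.38). NAC2, of a family with many stress-responsive members, read 2.49, 2.19 and 3.19 in the cold and -0.28, 0.23 and 0.42 in the control, a change of 2.50 (SE 0.30, adjusted p = 5.80e-07).

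The transcription factors with links to day length and light also included positive clones. CO, the potato relative of CONSTANS, which measures day length in Arabidopsis, read 2.86, 2.18 and 2.09 in the cold and -0.10, 0.33 and 0.34 in the control, a change of 2.19 (SE 0.23, adjusted p = 1.44e-07). The zinc finger factor dof1 changed by 1.08 (SE 0.15, adjusted p = 3.50e-06). The other 10 clones, among them MADS16, BEL5, the auxin response repressors IAA2 and IAA3, and the single-stranded DNA-binding proteins WHY1 and WHY2, lay between -0.19 and 0.40 and did not pass.

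Defence genes as a group showed no common sign. Of 20 clones of 11 tested genes, 2 were positive, 3 negative and 15 not called, with a median of -0.09. The share called was 25%, against 40.7% of all tested spots. The 2 positive clones were those of ChtA, a chitinase, at 2.51 and 2.46. The first read 3.23, 2.11 and 0.57 in experiments 1, 2 and 3 in the cold, and -0.64, -0.47 and -0.49 in the control (SE 0.48, adjusted p = 0.00021). The cold values were spread over 2.66 log2 units, and the lowest still lay above every control value. PR1B, a pathogenesis-related protein, varied as widely within the groups (-0.60, -2.40 and -2.84 against -0.56, -2.06 and 0.47) and did not pass (adjusted p = 0.0704). The negative clones were 1 of 2 of the proteinase inhibitor PIN-II (-0.60), 1 of 3 of leucine aminopeptidase, LAP (-0.38), and the lipoxygenase POTLX-3 (-0.51). Each of these 3 calls ended when 1 array or experiment was left out, and without experiment 3 the list had 0 negative clones of 16. The clones of polyphenol oxidase, PPO, gave 0.22 and 0.34 without passing, but the duplicate spot of the second passed (0.65, adjusted p = 0.0319).

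Smaller groups held single genes of note. In the redox list 1 of 9 clones was positive and 3 were negative, 1 each of DHAR, DHAR2 (-0.55) and the catalase CAT1 (-0.61). The share called, 44.4%, was near that of all tested spots, and the DHAR2 and CAT1 calls ended with 1 array or experiment left out and with quantile scaling. The quinone reductase NAD(P)H:QR changed by 1.4 (SE 0.34, adjusted p = 0.0022), a call that ended without experiment 2 (1.33). DHAR, dehydroascorbate reductase, which regenerates ascorbate, read -0.67, -1.03 and -0.79 in the cold and 0.55, 0.62 and 0.52 in the control, a change of -1.39 (SE 0.18, adjusted p = 2.50e-06). Its second clone gave -0.32 (adjusted p = 0.21). In the list of wall, water and cytoskeleton genes 4 of 13 clones were positive and 1 negative. The share called, 38.5%, was near the 40.7% of all tested spots. The xyloglucan-modifying enzyme xth1 changed by 2.31 (SE 0.32, adjusted p = 4.49e-06) and the 2 clones of RGP2, a reversibly glycosylated protein of wall polysaccharide synthesis, by 1.02 and 0.97. The other calls were the proton pump gene PHA2 (0.60, on 2 arrays of each group) and the channel protein gene MIP2 (-0.50), the latter lost without at least 1 experiment and with quantile scaling. In the phenylpropanoid list 1 of 5 clones was positive, 1 negative and 3 not called. The share called, 40%, was near the 40.7% of all tested spots. The positive clone was the lignin enzyme CCoAOMT, which changed by 1.52 (SE 0.25, adjusted p = 3.22e-05). The negative clone was of FLS (-0.83), a call lost without at least 1 experiment and with quantile scaling.

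Of 20 clones in the respiration list 5 were positive and 2 negative (35% called, against 40.7% of all tested spots). The aconitase clones gave 1.08 (SE 0.17, adjusted p = 2.31e-05) and 0.64 (adjusted p = 0.000376), and 1 of 5 clones of the ATP and ADP carrier ANT1 gave 0.78. Both clones of the complex I subunit CI-76kD were negative, at -0.45 and -0.38, and lost their calls without at least 1 experiment. In the glycolysis and fermentation list 2 of 13 clones were positive and 2 negative (30.8% called), with GAPDH clones in both directions. In the translation list 4 of 8 were negative (50%, against 19.9% of all tested spots) and 0 positive. The negative changes were -0.66 to -0.43, in the initiation factor eIF5A and the ribosomal protein RPL27. Of these calls only that of eIF5A3 (-0.66) held with each array and experiment left out, and the list had 2 negative clones without experiment 1 or 2 or with quantile scaling and 1 without experiment 3.

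Several listed genes could not be measured. ERD10C, a dehydrin, and the cyclin CYCD3.3 had no value on any of the 6 arrays, and neither had the sucrose transporter SUT2 or the lipoxygenase LOX-H1. The late embryogenesis gene Lea, a protein class linked to drying, changed by 0.38 (adjusted p = 0.0789).

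The 12 most positive and 12 most negative spots, taken among called spots with all 6 values and the same sign in 3 experiments, were nearly all unnamed. The positive ones changed by 3.88 to 5.33, or 14.7-fold to 40.3-fold, and the negative ones by -3.78 to -2.59. The only named spots among the 24 were those of 2 cab1 clones. Duplicate spots, where tested, gave 3.81 to 5.11 for the 9 positive and -3.10 to -1.27 for the 9 negative spots that had one.

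**Figure D3:**
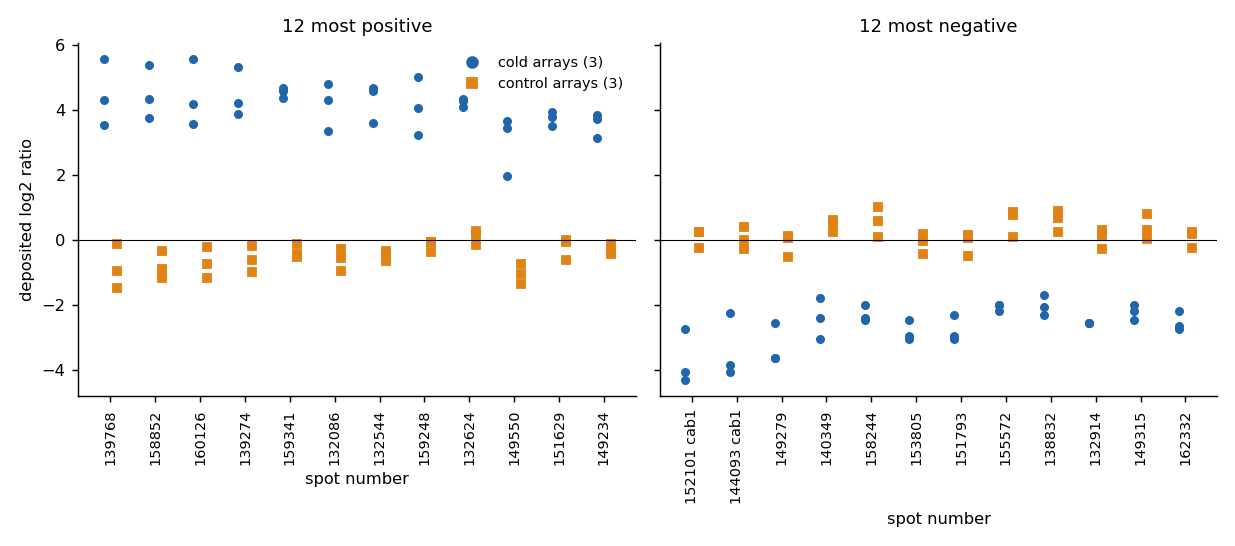
Deposited log2 ratios of the 12 most positive and 12 most negative called spots on the 3 cold arrays (circles) and the 3 control arrays (squares), 1 column for each spot. Cold and control values do not overlap for any of the 24 spots, which were chosen for their size and sign.

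The positive spots fell into different patterns. Spot 139768, with the largest change, read 5.58, 4.33 and 3.54 in the cold and -0.94, -1.47 and -0.14 in the control, a change of 5.33 (SE 0.49, adjusted p = 2.46e-08). Spots 158852, 160126, 139274, 132086 and 159248 behaved alike, with the highest cold value in experiment 1 and the lowest in experiment 3. Over the root arrays these 6 spots correlated with each other at 0.963 to 0.995 (up to 36 arrays, which share reference pools and stress groups), and whether they hold the same gene was not tested. They had changes of 1.56 to 2.14 at 9 h and of -0.06 to 0.35 in leaf.

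Spot 159341 differed from these. It read 4.60, 4.68 and 4.37 in the cold and -0.41, -0.51 and -0.14 in the control, a change of 4.90 (SE 0.26, adjusted p = 1.19e-11), and its change at 9 h was nearly as large, at 4.64. Spot 132544 gave 4.75 at 27 h, 4.31 at 9 h, 3.05 at 3 h and 2.27 in leaf. Spots 159341 and 132544 were also among the 4 with the lowest adjusted p, together with spot 136173 (2.25, SE 0.11, adjusted p = 6.18e-12) and spot 156611 (3.26, SE 0.17, adjusted p = 1.75e-11).

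Among the negative spots, all 12 had negative values at 9 h (-3.45 to -0.95) and at 3 h (-3.96 to -0.38), and the 8 with a value in leaf had negative values there (-1.78 to -0.64). Spot 158244 read -2.40, -2.00 and -2.47 in the cold and 0.10, 1.02 and 0.58 in the control, a change of -2.85 (SE 0.21, adjusted p = 6.83e-10), the lowest adjusted p of the 12. Spot 132914 read -2.56 on all 3 cold arrays, a tie that the 2 decimals of the linear ratios allow.

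The time course asks when these changes arose. If the stress always began at the same hour, samples at 3 and 27 h, 24 h apart, share an hour of the day that 9 h does not. Length of cold and hour of the day therefore cannot be told apart, though each time had controls of its own. At 3 h of cold 2491 of 17068 tested spots passed (14.6%), at 9 h 4603 of 16496 (27.9%) and at 27 h 40.7%, each time against its own controls and reference pools. Of 15632 spots tested at all 3 times, 3241 were positive at 27 h. Of these 418 (12.9%) were called positive at 3 and 9 h as well, 1181 (36.4%) at 9 h but not at 3 h, and 1280 (39.5%) at neither time. Of 3228 negative spots, 356 (11.03%) were called negative at both earlier times, 1001 (31.01%) at 9 h but not at 3 h, and 1462 (45.3%) at neither. A missing call at an earlier time does not show a difference: of the 2742 spots called at 27 h alone, 378 passed the test of 27 h against 9 h and 1186 that of 27 h against 3 h.

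Tested directly, the changes at 27 h and 9 h differed for 1128 of 15829 spots (7.13%), higher at 27 h for 625 and lower for 503. This count rested on few arrays, with 132 spots passing without experiment 2, 252 without experiment 3, 741 without the reference pools as a block and 153 after quantile scaling. The changes at 27 h and 3 h, times 24 h apart, differed for 3799 of 16207 spots (23.4%), with 1601 without experiment 2, 1536 without experiment 3 and 1603 after quantile scaling. Of the 1501 spots called at both 3 h and 27 h, 1233 had the same sign and 268 the opposite. Of the calls at 9 h, 72.0% were also called at 27 h, and 49.4% of those at 27 h were called at 9 h. Of the 3230 spots called at both, 3094 had the same sign.

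**Figure D4:**
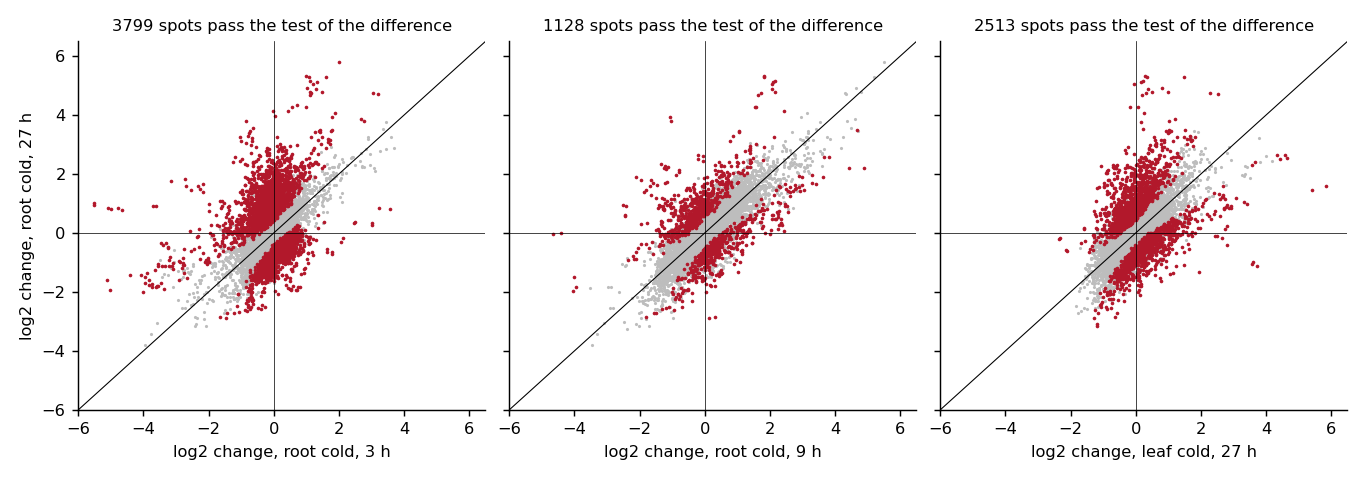
Each point is 1 spot, with its log2 change in root at 27 h of cold (vertical) against its change in root at 3 h, in root at 9 h and in leaf at 27 h (horizontal). Red points passed the test of the difference, 3799, 1128 and 2513 in the 3 panels, and the diagonal marks equal changes.

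Among the listed clones 17 of 181 passed the test of 27 h against 9 h (9.39%, against 7.13% of all spots), 8 of them among the 22 clones of the starch and sugar list. With quantile scaling 2 of the 17 passed, those of GBSS and CO. GBSS had a change of -1.39 at 3 h, 1.08 at 9 h and -0.99 at 27 h, and its difference between 27 h and 9 h was -2.07 (SE 0.25, adjusted p = 1.79e-05). SS2 had 0.32 at 9 h and -0.83 at 27 h in the clone that moved most (difference -1.15, adjusted p = 0.00407). FBPase went the other way, with -2.22 and -2.18 at 9 h and differences of 1.43 and 1.3. Both clones of R1, which phosphorylates starch before its breakdown, had differences of 0.89 and 0.91, with changes of -0.64 and -0.68 at 9 h and of 0.24 and 0.23 at 27 h, where only the duplicate spot of the first passed (0.44).

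CO had the largest change of any listed clone at 9 h. It stood at 0.72 at 3 h, 4.90 at 9 h and 2.19 at 27 h, a difference of -2.71 between 27 h and 9 h (SE 0.33, adjusted p = 1.44e-05). ChtA appeared late, with -0.21 at 9 h and 2.51 at 27 h in the first clone (difference 2.72, adjusted p = 0.0157). The aconitase clones (differences 1.02 and 0.82) and the positive PSBR clones (1.81 and 1.82) were also higher at 27 h than at 9 h. Of these 17 clones, only those of GBSS and CO passed without each of the arrays and each of the experiments.

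Between 3 h and 27 h, 49 of 179 clones differed (27.4%, against 23.4% of all spots), of which 13 passed with quantile scaling. Methionine and polyamine clones made up 13 of these, all higher at 27 h by 0.84 to 1.91, among them 7 of the 8 SAMDC clones. With quantile scaling 4 of these 13 passed, all of SAMDC. SAMDC at spot 142514 had -0.04 at 3 h, 1.25 at 9 h and 1.46 at 27 h. No clone of that list passed the test of 27 h against 9 h (lowest adjusted p = 0.298). NAC2 turned from -0.99 at 3 h to 1.37 at 9 h and 2.50 at 27 h, a difference of 3.49 from 3 h (SE 0.42, adjusted p = 3.33e-06). Other factors were higher at 27 h too, STWRKY8 by 1.47 and 1.34, StWRKY16 by 1.64 and dof1 by 1.16. The cab1 clone at spot 152101 was already at -3.96 at 3 h, and neither test of its difference passed.

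**Figure D5:**
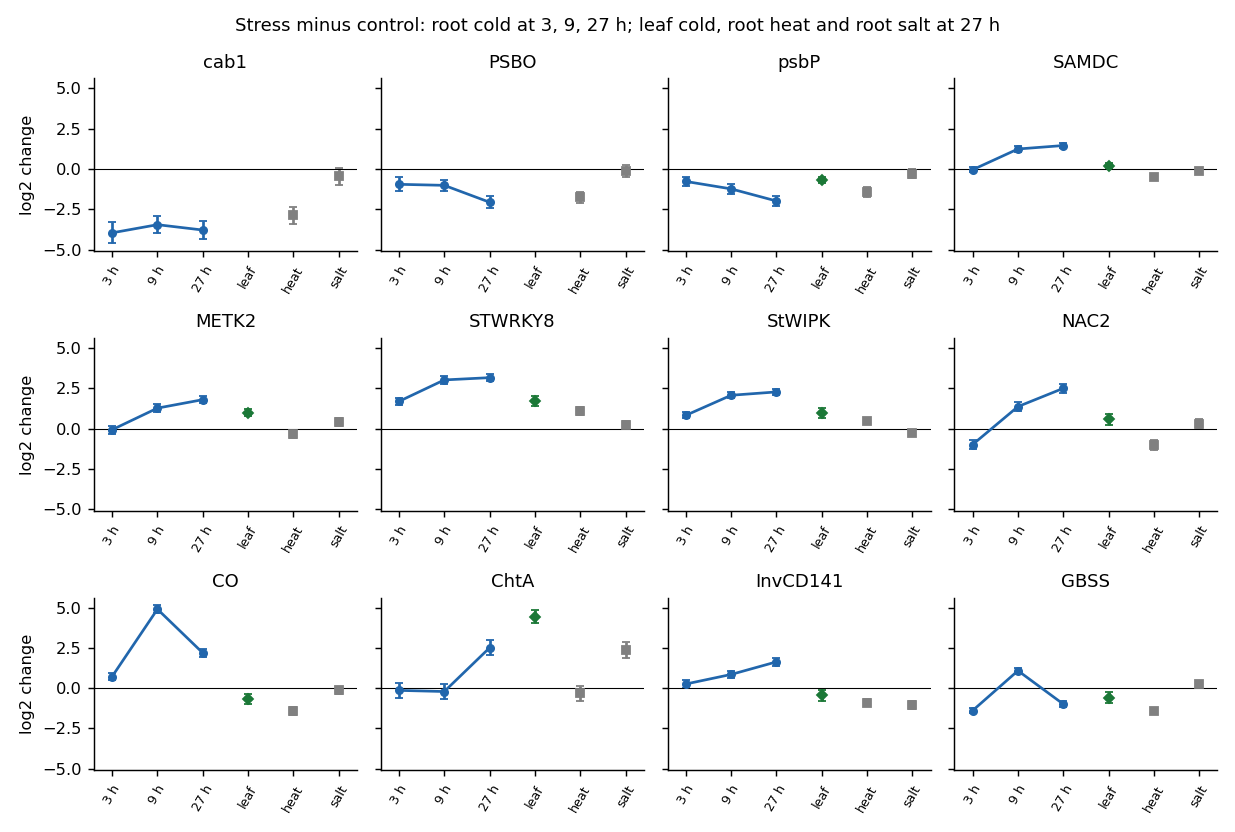
Log2 changes (stress minus control, with the SE of the fit) of the clone with the lowest adjusted p for 12 genes, in root at 3, 9 and 27 h of cold, in leaf at 27 h of cold, and in root at 27 h of heat and salt. Leaf values are missing for cab1 and PSBO, which had too few values there; the heat and salt points share their control arrays with root cold at 27 h.

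In leaf at 27 h of cold 4135 of 18034 tested spots passed (22.9%). Root and leaf differed in their change for 2513 of 15856 spots (15.8%), 1311 higher and 1202 lower in root. The roots stood in the chilled medium and the temperature of the leaves is not given. Tissue and the degree of chilling it received therefore cannot be told apart. Without an experiment this count was 905 to 1577, and after quantile scaling 458. Of the 6478 root calls among spots tested in both tissues, 35.7% were also called in leaf, and of the 3770 leaf calls 61.3% were called in root. Of the 2310 spots called in both, 2154 had the same sign.

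Among the listed clones 36 of 174 differed between the tissues (20.7%, against 15.8% of all spots), and with quantile scaling 3 of the 36 passed, those of CO, dof1 and 1 of R1. Of 16 transcription factor clones 6 were higher in root: CO by 2.84 (2.19 against -0.65 in leaf, SE 0.40, adjusted p = 1.77e-06), NAC2 by 1.91, STWRKY8 by 1.44 in 1 of 2 clones, dof1 by 1.21 (adjusted p = 1.08e-05), IAA2 by 0.99 and IAA3 by 0.95. IAA2 and IAA3 were not called in root itself (0.31 and 0.36). SAMDC was higher in root in 5 of 8 clones, by 0.89 to 1.27, and InvCD141 by 2.09 (SE 0.42, adjusted p = 0.000509), with -0.45 in leaf. ChtA had a larger positive change in leaf than in root, 4.44 against 2.51 in the first clone, a difference of -1.94 (adjusted p = 0.0316). All 6 GAPDH clones were tested, and 4 were lower in root, by -1.03 to -0.69. The differences of CO, dof1, InvCD141 and the SAMDC clone at spot 142514 passed without each array and each experiment, and the other 32 did not. Of these 4, InvCD141 and SAMDC did not pass with quantile scaling.

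Among spots chosen for their difference from leaf, the gene with the ID LOC102577637 had opposite signs in the tissues. Spot 159279 read -1.89, -1.84 and -0.45 in the cold and -0.47, -0.32 and 0.03 in the control in root, a change of -1.14, against 3.73 in leaf, a difference of -4.87 (adjusted p = 4.93e-13). The root groups overlapped, since the highest cold value lay above the lowest control value. All 6 tested spots of that ID were negative in root (-1.39 to -0.97). The tables used here give this ID no name.

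Heat and salt at 27 h were measured against the same root control arrays, so their values are given side by side only. The cab1 clone at spot 152101 had -3.78 in cold, -2.87 in heat and -0.46 in salt. PSBO had -2.06, -1.75 and -0.12 in the same order, and psbP -1.98, -1.44 and -0.28. NAC2 had 2.50 in cold and -1.01 in heat, CO 2.19 and -1.43, SAMDC 1.46 and -0.51, and InvCD141 1.63 and -0.90. Other genes did not reverse: STWRKY8 had 3.16 in cold and 1.08 in heat, and GBSS -0.99 and -1.40. StWIPK had 2.28 and 0.46, and METK2 1.80 and -0.36, and the heat values of this last pair did not pass. In salt InvCD141 had -1.05. ChtA had 2.51 in cold, -0.32 in heat and 2.38 in salt.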

How the data were processed

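Values are log2 ratios as deposited in a single table of 72 arrays; the authors used limma per the submitters' processing notes, with role and version not stated. Background correction, normalization and what left cells empty: not given in the sources used here. All 104039 deposited values of the 6 arrays lie within 0.002 of the log2 of a ratio with 2 decimals. RNA extraction is given as a column kit in one label and as phenol or trizol in another. No intensities were used, so spots of low signal were not set apart. The number of arrays is a further limit on the precision.

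Tests used least squares fits of each spot in R 4.3.3, followed by eBayes of limma 3.58.1. Fits held all 36 root arrays (12 groups of 3), or all 72 for root against leaf, with the reference pool as a block. Adjustment was by Benjamini-Hochberg at 0.05. Spots needed 2 values in each group compared, with no other filter. The pool pairs arrays by the labels: deviations from group means of same-numbered cold and control arrays correlated at 0.21, 0.15 and 0.20. The code was tested on simulated data. Alternatives were other blocks, scalings, filters, averaged duplicates, and arrays or experiments left out. Duplicate positions were inferred from the values; the 905 annotated clones all lie on such pairs.

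Gene lists and comparisons were chosen with earlier results of these data known. Named spots are the 12 most positive and 12 most negative called spots with 6 values and 1 sign in 3 experiments, the 4 lowest adjusted p, and 4 and 4 by the same rule for 27 h against 9 h and root against leaf, plus all listed genes.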

Additional observations from a re-analysis of the deposited data

Results flagged for a closer look

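The change in root at 27 h of cold differed, by a test of the difference itself, from that at 9 h for 1128 spots, from that at 3 h for 3799 and from that in leaf at 27 h for 2513. The spots below are those with the largest such differences, 4 in each direction.

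Spots 140825, 131752, 158627 and 133865 were higher at 27 h than at 9 h, by 4.83, 4.61, 4.02 and 3.68. Spot 140825 had a change of 3.79 at 27 h and -1.04 at 9 h. Spot 131752 had -4.65 at 9 h and -0.04 at 27 h (adjusted p = 0.96), with cold ratios of -1.79, 0.21 and 1.69 at 27 h. Spots 156529 (the CO gene), 142073, 139557 and 160821 were lower at 27 h than at 9 h, by differences of -2.71, -2.36, -2.33 and -2.10. Spot 139557 had -1.31 at 27 h and 1.02 at 9 h. Leaving out experiment 2 ended the calls of spots 131752, 142073 and 139557, and leaving out experiment 3 those of 139557 and 160821. Quantile scaling ended those of 142073 (-1.11) and 160821 (-1.34).

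Spots 139768, 159282, 158852 and 132930 were higher in root than in leaf, by 5.05, 4.95, 4.94 and 4.49, with changes of 0.16 to 0.35 in leaf. Spots 159279, 143827, 137106 and 144700 were lower in root, by differences of -4.87, -4.25, -2.60 and -2.52. Spot 143827 was positive in both tissues, at 1.58 in root and 5.83 in leaf.

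Spots with values on 1 side only are outside the test. There were 31 with values on all 3 cold arrays and no control array, with mean ratios of -0.05 to 4.28 and 20 of them at 2-fold or more. The highest, spot 145795, read 4.68, 4.17 and 3.99. Another 36 had values on all 3 control arrays and no cold array, with means of -0.52 to 0.33. The rule behind the empty cells is not known, and their cause was not tested.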

How the results depend on the processing

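The count for cold against control was between 1.5 times lower and higher than 6794 under most settings, with 6195 without the replicate block by reference pool, 6405 with the experiment number as the block, and 5734 with the 12 root arrays of 27 h alone, a fit chosen after seeing the data. It moved to 4012 with quantile scaling, to 3847 of 8938 with duplicate spots averaged (fewer values tested) and to 2047 when 2-fold was asked for as well, with 60.6% positive against 51.1%. Leaving out an array or an experiment gave 4057 to 5928. For 27 h against 9 h the count of 1128 moved to 741 with no replicate block, 153 with quantile scaling (77.1% positive against 55.4%) and 731 with averaged duplicates, and lay between 132 and 1246 with an array or experiment left out. For 27 h against 3 h it moved from 3799 to 1603 and 2282 under the last 2 settings, with 1536 to 3509 left out, and for root against leaf from 2513 to 458 (64.0% positive against 52.2%) and 1610, with 905 to 2234. Quantile scaling gives all arrays the same spread, whereas cold arrays as deposited are wider; the cause of the losses was not tested. The 12.3-point difference in spots beyond 2-fold became 4.72 at 3-fold and 11.6 to 13.5 without an experiment. All 26 spots with the largest changes or lowest adjusted p kept sign and call in 234 values under other settings and 234 with arrays or experiments left out. Of 92 called gene clones, 2 of METK1 reversed with quantile scaling (-0.205 and -0.0535), without passing the test, and 35 lost their call under at least 1 setting of scaling, block or filter. Of the listed clones that passed a test of a difference, 2 of 17 (9 h), 25 of 49 (3 h) and 4 of 36 (leaf) passed with each array and experiment left out.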
